A study of Mus musculus with 6 samples.

Results

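The genes described here are 9 members of the poly(ADP-ribose) polymerase (PARP) family, Parp1, Parp2, Parp3, Parp8, Parp9, Parp10, Parp11, Parp12 and Parp14, together with Dtx3l, the ubiquitin ligase that binds Parp9. They were picked by gene symbol from the 54752 genes counted, which gave 10 members, each matched to 1 gene. All 10 passed the filter on low counts and were among the 18617 genes tested, with 81 to 3287 counts in every library. The RNA came from the right hippocampus, taken whole, of male wild-type (WT) C57BL/6 mice with an age of 14 weeks in the labels. The authors' methods name the strain as C57BL/6 J. In 3 mice microcoils were placed round both common carotid arteries (bilateral carotid artery stenosis, BCAS), which lowers blood flow to the brain. The paper put the narrower coil on the right artery. Its stained brain sections of BCAS mice had larger infarct areas on that side than on the left. The other 3 mice had a sham operation, and the tissue of both groups was taken 3 weeks after surgery. Each library comes from 1 mouse, no transgene was used, all mice had surgery under isoflurane, and the samples of a group are described as biological replicates.

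PARP enzymes take ADP-ribose from NAD and attach it to proteins or nucleic acids. Parp1 and Parp2 build chains of it at DNA strand breaks, while most of the other members add single units. Parp9, Parp10, Parp11, Parp12, Parp14 and Dtx3l are known as interferon-responsive genes in many cell types. In the brain the response to interferon is best known in microglia, the resident macrophages of the tissue, although astrocytes, neurons and endothelial cells also answer to it.

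Of the 10 members, 6 were up-regulated DEGs in BCAS mice, where a DEG needed an adjusted P under 0.05 together with a log2 fold change beyond 1 in either direction. They were Parp14, Parp10, Parp3, Parp9, Dtx3l and Parp12. Among all tested genes 8.47% were up-regulated DEGs, 0.999% were down-regulated DEGs and 9.46% were DEGs in either direction. With no limit on the fold, 7 members passed the adjusted P, 6 higher and Parp1 lower, where 31.3% of tested genes passed, 18.0% higher and 13.2% lower. In the same 6 members every BCAS library lay above every sham library in CPM, which are counts scaled to the size of each library, and Parp1 was the only member with every BCAS library below. Of the 18610 symbols of tested genes, each taken a single time, 25.3% had BCAS libraries above, 22.7% had them below and 48.0% had either pattern. The median log2 fold change of the 10 members was 1.67, and that of all tested genes was 0.018. Parp2, Parp8 and Parp11 had overlapping groups and did not pass the test.

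**Figure D1:**
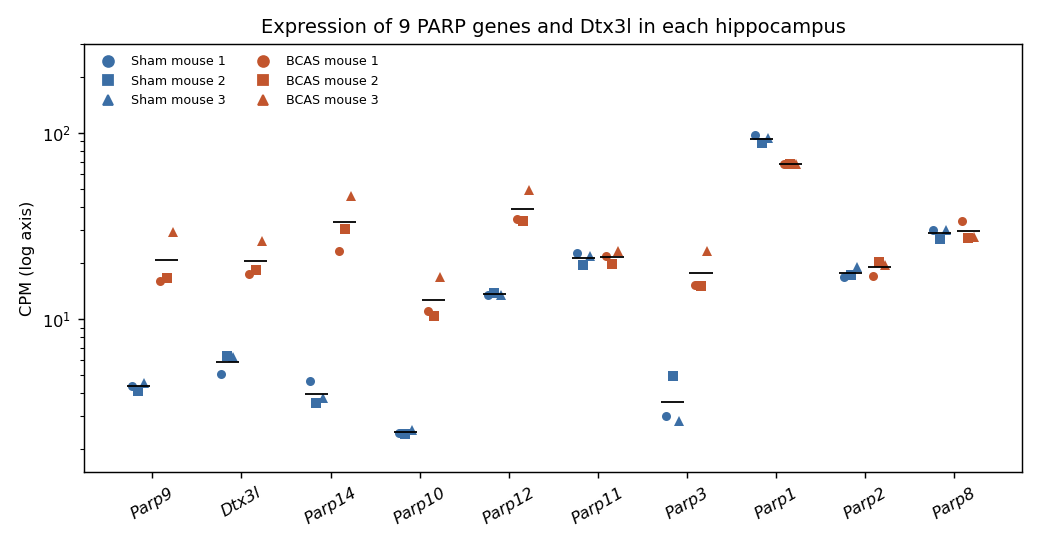
CPM of each member (vertical axis, log scale) in the 3 sham mice (blue) and the 3 BCAS mice (orange), with the genes along the horizontal axis, a symbol shape for each mouse number and a horizontal line at each group mean. The points of the groups are apart for 7 genes, with Parp1 the only one lower in BCAS mice, and overlap for Parp2, Parp8 and Parp11.

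The sham libraries held 34301711 to 35607098 counts and the BCAS libraries 29652456 to 31892083, and mitochondrial genes took 6.90% to 6.99% of the sham counts and 6.02% to 6.56% of the BCAS counts. Depth and the mitochondrial share were thus lower in every BCAS library, and their part in the differences below was not tested. Whole tissue was sequenced, so more or fewer cells of a type and more or less RNA per cell cannot be told apart in any value given here. Microglial markers were higher in BCAS mice, 12 of 12 with an adjusted P under 0.05, none was at 0 in a whole group, and their summed level was 409 to 431 CPM in sham mice and 3011 to 4927 CPM in BCAS mice. Markers of hippocampal neurons were lower, 8 of 10 with an adjusted P under 0.05, at 7722 to 8084 CPM in sham mice and 3771 to 5539 CPM in BCAS mice. Markers of the choroid plexus, which lies against the hippocampus, ranged from 71.1 to 4089 CPM in sham mice and from 40.9 to 5938 CPM in BCAS mice, with no separation of the groups. The part of these markers in the differences below was not tested.

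Parp9 and Dtx3l both rose in BCAS mice. Parp9 carries macrodomains, which bind ADP-ribose, and Dtx3l, deltex E3 ubiquitin ligase 3L, is the catalytic partner of the complex, which is known to act on interferon target genes. Parp9 was 4.39, 4.10 and 4.54 CPM in sham mice 1 to 3 and 16.1, 16.7 and 29.3 CPM in BCAS mice 1 to 3. The BCAS libraries were all higher than the sham libraries, and BCAS mouse 3 was the highest. Its mean went from 4.34 ± 0.228 CPM (SD, n = 3) to 20.7 ± 7.46 CPM (SD, n = 3), a log2 fold change of 2.25 (SE 0.24, adjusted P = 2.064e-04 by edgeR's quasi-likelihood test). Dtx3l was 5.07, 6.37 and 6.24 CPM in sham mice and 17.4, 18.3 and 26.1 CPM in BCAS mice, again with BCAS mouse 3 highest and no overlap. This was a mean of 5.89 ± 0.714 CPM (SD, n = 3) against 20.6 ± 4.80 CPM (SD, n = 3), with a log2 fold change of 1.81 (SE 0.18, adjusted P = 1.681e-04 by edgeR).

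The genes of the pair lie head to head on opposite strands of chromosome 16. In mm10, Parp9 spans chr16:35938470-35972605 on the plus strand and Dtx3l spans chr16:35926511-35939151 on the minus strand, so that the spans overlap by 682 bases. Exons of both genes share 458 bases, which is 9.40% of the exonic length of Parp9 and 8.0% of that of Dtx3l. Counting ignored strand, so reads from these bases could not be given to either gene by strand, and whether they were dropped or counted was not tested. The log2 ratio of Parp9 to Dtx3l in CPM, not corrected for exon length, was -0.20, -0.63 and -0.45 in sham mice 1 to 3 and -0.12, -0.13 and 0.16 in BCAS mice 1 to 3. The ratio was higher in every BCAS library than in every sham library. In CPM per kilobase of exons, Parp9 was at 0.892 and Dtx3l at 1.03 in sham mice (means, n = 3), and Parp9 was at 4.24 and Dtx3l at 3.60 in BCAS mice. The mean log2 CPM ratio of Parp9 to Dtx3l was higher by 0.40 in BCAS mice, with an exact two-sided permutation P = 0.1, the smallest that 3 mice against 3 can give, and this ratio was chosen after the values were seen. Parp14 lies on the same chromosome at chr16:35832874-35871544 on the minus strand, 54966 bases from Dtx3l.

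The RefSeq start of Dtx3l lies inside the span of Parp9. A promoter window, 250 bases before to 50 bases after the annotated start in RefSeq (GRCm38.p6), was found for 7 members and not for Parp9, Parp10 or Parp14, and its sequence is shown for Dtx3l, Parp11, Parp3 and Parp1, a choice that takes in members that rose, fell or did not pass the test. Each window was searched on both strands for the core of the interferon-stimulated response element, which reads GAAA, any 2 bases and GAAA again, and for the gamma-activated site, TTCNNNGAA, both known from promoters of interferon target genes. Of 32851 mouse promoter windows, 3.44% held the first motif and 8.30% held the second. Capitals mark a match, and the Dtx3l window at chr16:35938978-35939277 on the minus strand held neither motif:
Dtx3l: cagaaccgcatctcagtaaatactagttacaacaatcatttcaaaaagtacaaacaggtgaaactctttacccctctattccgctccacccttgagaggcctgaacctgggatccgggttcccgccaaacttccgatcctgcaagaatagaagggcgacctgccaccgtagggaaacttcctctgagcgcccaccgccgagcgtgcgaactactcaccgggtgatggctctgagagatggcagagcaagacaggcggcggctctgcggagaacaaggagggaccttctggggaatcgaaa

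Parp14, a mono-ADP-ribosyltransferase with macrodomains that is known as a cofactor of Stat6 in macrophages and lymphocytes, had the largest fold change of the 10 members. It was 4.63, 3.53 and 3.79 CPM in sham mice and 23.2, 30.6 and 45.9 CPM in BCAS mice. Even the lowest BCAS library was 5.02-fold above the highest sham library. The mean went from 3.98 ± 0.576 to 33.2 ± 11.5 CPM (SD, n = 3 per group), a log2 fold change of 3.06 (SE 0.25, 95% confidence interval 2.49 to 3.63, adjusted P = 5.744e-05 by edgeR). This placed Parp14 at percentile 98.1 of the log2 fold changes of all tested genes.

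Parp10, a mono-ADP-ribosyltransferase that modifies itself and kinases, was the member with the fewest counts in sham mice. Its levels there were 2.45, 2.42 and 2.54 CPM, a narrow spread, and those in BCAS mice were 11.0, 10.3 and 16.7 CPM. The groups were apart, and BCAS mouse 3 was again the highest. The log2 fold change was 2.36 (SE 0.21, adjusted P = 9.123e-05 by edgeR). Parp10 lies at chr15:76231174-76243441 on the minus strand and shares 205 exonic bases, 4.79% of its exonic length, with Plec on the same strand, so reads there could belong to either gene.

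Parp12, a zinc-finger member that adds single ADP-ribose units and restricts several RNA viruses, had the highest level of the interferon-responsive members that rose. It was 13.5, 13.8 and 13.5 CPM in sham mice and 34.4, 33.5 and 49.5 CPM in BCAS mice, without overlap. Its log2 fold change of 1.53 (SE 0.15, adjusted P = 1.66e-04 by edgeR) was the smallest among the 6 up-regulated members. The gene lies at chr6:39086410-39118349 on the minus strand, and its promoter window held neither motif.

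Parp11, a member of the nuclear envelope that is known to modify the machinery controlling the type I interferon receptor, did not follow the others. It was 22.8, 19.4 and 21.8 CPM in sham mice and 21.7, 19.7 and 23.2 CPM in BCAS mice. These ranges overlap nearly completely. The log2 fold change was 0.015 (SE 0.11, adjusted P = 0.935 by edgeR), and its 95% confidence interval from -0.23 to 0.26 does not reach the fold change of any of the other 5 interferon-responsive members. Of the 7 members with a window, Parp11 was the only one whose window held either motif, and of the interferon-responsive members that rose only Dtx3l and Parp12 had a window. Parp11 had 2 RefSeq windows, and the downstream window, chr6:127453377-127453676 on the plus strand, held neither motif. The upstream window, chr6:127446590-127446889 on the plus strand, held the response element core on the other strand, read here as TTTCGATTTC, and the gamma-activated site as TTCTTGGAA, which share 3 bases. Capitals mark both matches, which are letters only and were not tested for binding:
Parp11: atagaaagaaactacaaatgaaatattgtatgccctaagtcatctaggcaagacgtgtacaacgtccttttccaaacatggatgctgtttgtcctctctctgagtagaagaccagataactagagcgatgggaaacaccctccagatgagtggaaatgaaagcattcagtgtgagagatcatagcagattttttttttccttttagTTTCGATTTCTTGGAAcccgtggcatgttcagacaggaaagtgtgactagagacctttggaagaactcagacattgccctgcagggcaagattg

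Among the members that act at DNA breaks, Parp3 rose, Parp1 fell and Parp2 did not pass the test. Parp3, which acts with end-joining factors in the repair of broken DNA ends, was 3.01, 4.93 and 2.83 CPM in sham mice and 15.2, 15.0 and 23.1 CPM in BCAS mice. Sham mouse 2 was above the other 2 sham mice but far under all BCAS mice. The mean went from 3.59 ± 1.17 to 17.8 ± 4.63 CPM (SD, n = 3 per group), a log2 fold change of 2.31 (SE 0.26, adjusted P = 2.859e-04 by edgeR). The point estimate thus lies between those of Parp9 and Parp10, although Parp3 was placed with the DNA repair members. Parp3 lies at chr9:106470322-106476949 on the minus strand and shares 20 exonic bases with Rrp9 on the opposite strand. Its RefSeq promoter window, chr9:106476900-106477199 on the minus strand, is shown because Parp3 rose with the interferon-responsive members, and it held neither motif:
Parp3: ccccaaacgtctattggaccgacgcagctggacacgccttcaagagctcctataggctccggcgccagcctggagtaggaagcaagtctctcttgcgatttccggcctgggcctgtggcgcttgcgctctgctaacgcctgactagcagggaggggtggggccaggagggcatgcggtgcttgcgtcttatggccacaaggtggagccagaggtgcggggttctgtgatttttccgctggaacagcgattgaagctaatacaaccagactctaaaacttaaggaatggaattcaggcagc

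Parp1, the main sensor of DNA strand breaks and the largest source of poly(ADP-ribose) in most cells, was lower in BCAS mice. It was 96.9, 88.0 and 94.3 CPM in sham mice and 67.8, 68.1 and 68.3 CPM in BCAS mice. The BCAS libraries were nearly equal to each other and all below the lowest sham library. The mean went from 93.1 ± 4.61 to 68.1 ± 0.228 CPM (SD, n = 3 per group), a log2 fold change of -0.45 (SE 0.068, 95% confidence interval -0.60 to -0.30, adjusted P = 0.001498 by edgeR). The median log2 fold change of the 10 neuronal markers was -0.70, and whether the lower neuronal level bears on Parp1 was not tested. Parp1 lies at chr1:180568924-180601254 on the plus strand. Its RefSeq promoter window, chr1:180568641-180568940 on the plus strand, is given for contrast with those of the members that rose, and it likewise held neither motif:
Parp1: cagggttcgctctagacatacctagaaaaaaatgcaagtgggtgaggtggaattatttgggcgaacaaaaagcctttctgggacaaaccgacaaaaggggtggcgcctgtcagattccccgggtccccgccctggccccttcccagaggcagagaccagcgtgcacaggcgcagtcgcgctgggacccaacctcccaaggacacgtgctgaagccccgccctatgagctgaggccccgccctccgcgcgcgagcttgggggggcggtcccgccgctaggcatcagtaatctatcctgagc

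Parp2, which acts beside Parp1 at DNA breaks, was 16.8, 17.2 and 19.0 CPM in sham mice and 17.1, 20.3 and 19.5 CPM in BCAS mice. The groups overlapped, with a log2 fold change of 0.099 (SE 0.11, 95% confidence interval -0.15 to 0.35, adjusted P = 0.537 by edgeR). Parp8, a mono-ADP-ribosyltransferase of less known function, was 30.2, 26.9 and 30.1 CPM in sham mice and 33.8, 27.2 and 27.6 CPM in BCAS mice. It overlapped as well, with a log2 fold change of 0.025 (SE 0.11, 95% confidence interval -0.23 to 0.28, adjusted P = 0.892 by edgeR). Neither interval reaches a log2 fold change of 1. Parp2 lies at chr14:50807841-50821301 on the plus strand and Parp8 at chr13:116854820-117025537 on the minus strand, and their promoter windows held neither motif.

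**Figure D2:**
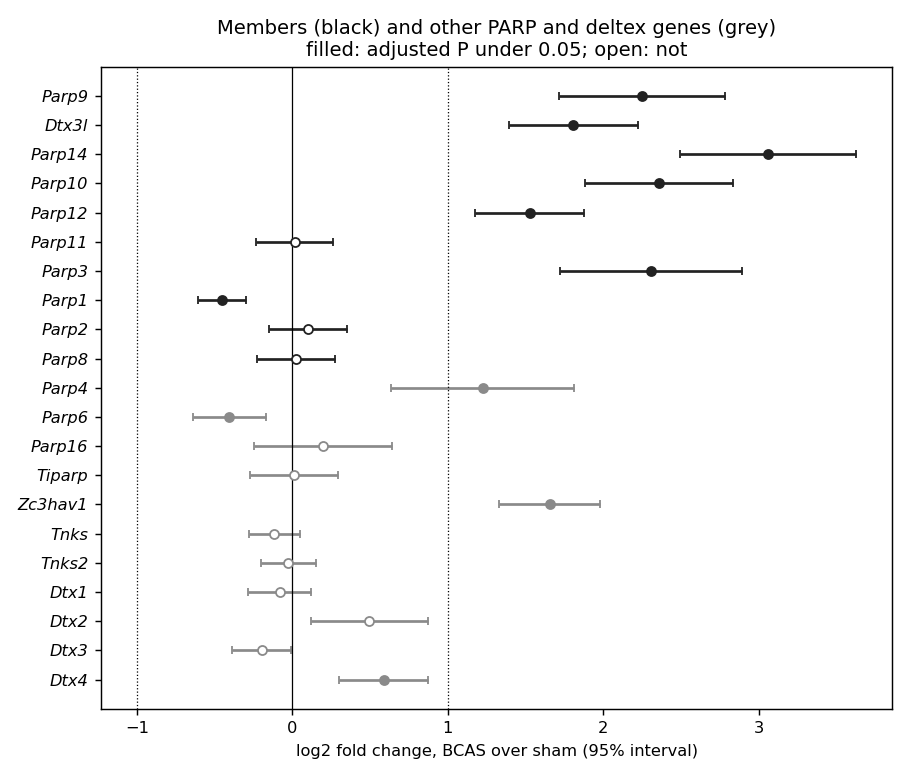
Log2 fold change (BCAS over sham, horizontal axis) from edgeR for the 10 members in black and for 7 other PARP genes and 4 other deltex genes in grey, where points are estimates, filled with an adjusted P under 0.05, bars are unadjusted 95% confidence intervals and dotted lines mark a log2 fold change of -1 and 1. Among the members Parp14 lies farthest to the right at 3.06, Parp3, Parp9, Parp10, Dtx3l and Parp12 lie between 1.53 and 2.36, and Parp1 is the only member with an interval below 0.

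To compare the interferon-responsive members with Parp1 and Parp2, the log2 ratio of each to each was taken within a library, where the scaling between libraries cancels. The ratio of Parp14 to Parp1 was -4.37, -4.62 and -4.62 in sham mice 1 to 3 and -1.54, -1.15 and -0.57 in BCAS mice 1 to 3. All BCAS mice were thus above all sham mice, and the difference of 3.44 is a 10.9-fold higher ratio. The ratios to Parp1 were higher by 2.75 for Parp10, 2.63 for Parp9, 2.23 for Dtx3l and 1.95 for Parp12. For Parp11 the ratio to Parp1 was higher by 0.46, a 1.38-fold difference, with no overlap between the groups and no fold change of Parp11 itself past the test.

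Relative to Parp2, which did not pass the test, the differences were 2.90 for Parp14, 2.20 for Parp10, 2.08 for Parp9, 1.68 for Dtx3l and 1.40 for Parp12. The ratio of Parp11 to Parp2 was 0.43, 0.17 and 0.20 in sham mice and 0.35, -0.043 and 0.25 in BCAS mice, a difference of -0.083 with overlapping groups (exact permutation P = 0.6). The other 11 of the 12 ratios each had BCAS mice above sham mice in every library. Each gave an exact two-sided permutation P = 0.1, the smallest possible with 3 mice against 3, or 0.109 adjusted over the 12 ratios. No ratio could therefore pass an adjusted P of 0.05 in this design. Parp1 was itself lower in every BCAS library, which raises the ratio of any unchanged gene to it. The share of all tested genes whose ratios separate in this way was not counted, so the 11 ratios describe the members only.

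**Figure D3:**
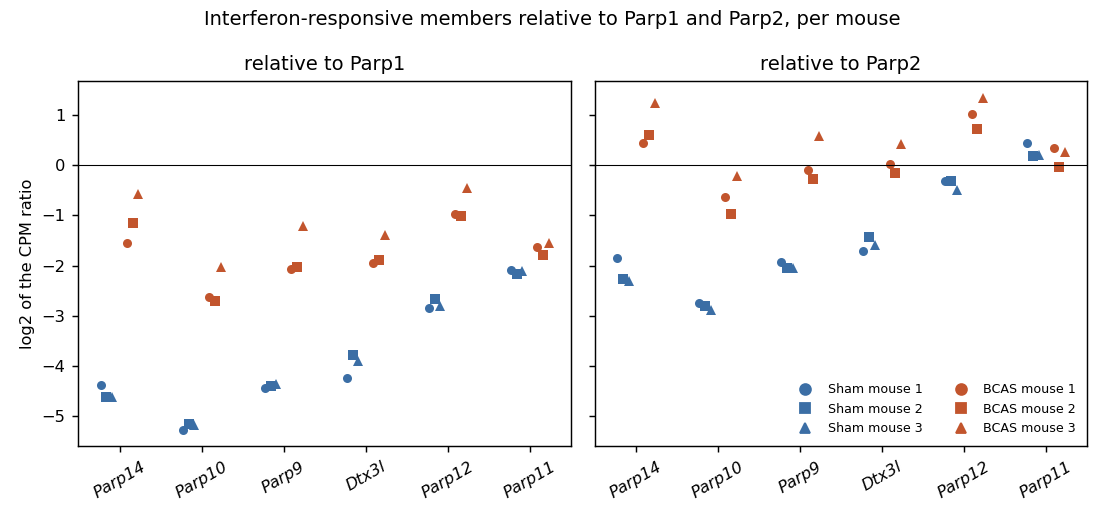
Log2 ratio of each interferon-responsive member to Parp1 and to Parp2 within each library (vertical axis), with sham and BCAS mice as separate points. BCAS points lie above sham points for each of the 12 ratios except that of Parp11 to Parp2, where they overlap.

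The order of the members by level changed as well. On a scale of CPM per kilobase of exons, Parp1 led in sham mice at 17.6 ± 0.871 (SD, n = 3), followed by Parp2 at 4.88 ± 0.317. Parp12 at 3.40, Parp8 at 3.27 and Parp11 at 3.04 came next, and neighbours among these did not differ beyond the spread of their libraries. Dtx3l at 1.03, Parp3 at 0.970 and Parp9 at 0.892 followed, apart from the genes above and below but with overlap between neighbours within these 3, and Parp10 at 0.577 and Parp14 at 0.428 were lowest.

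In BCAS mice Parp1 still led at 12.9 ± 0.0431 CPM per kilobase (SD, n = 3), with Parp12 next at 9.80 ± 2.25. The other 8 members, from Parp2 at 5.22 down to Parp10 at 2.97, formed a run in which the libraries of each overlapped those of the next. Parp14, the lowest in sham mice, stood at 3.57 ± 1.24. Parp1 held 48.7% ± 1.15 (SD, n = 3) of the summed CPM per kilobase of the 10 members in sham mice, against 24.4% ± 3.31 in BCAS mice. The 6 up-regulated members together held 20.3% ± 1.54 and 53.6% ± 6.12. They were picked for being higher in these same BCAS libraries, so their larger share follows from that choice. A rise of other members also lowers the share of Parp1.

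**Figure D4:**
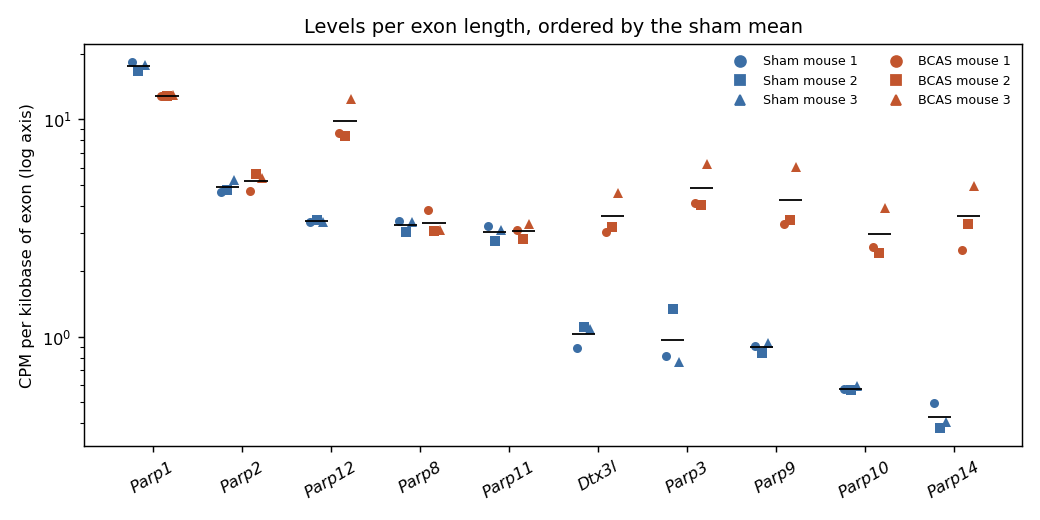
Level of each member in CPM per kilobase of exons (log scale) in each library of the sham and BCAS mice. In sham mice the levels run from 0.428 for Parp14 to 17.6 for Parp1 by group mean, and in BCAS mice from 2.97 for Parp10 to 12.9 for Parp1.

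All 6 up-regulated members had their highest level in BCAS mouse 3, which also had the highest summed microglial level, 4927 CPM, and the lowest neuronal level, 3771 CPM. Parp11, which did not pass the test, was also highest in that mouse, at 23.2 CPM, while Parp1, Parp2 and Parp8 were not. The share of all tested genes that were highest there was not counted, so the shared peak describes the members only. Without BCAS mouse 3 the log2 fold changes of the up-regulated members ran from 1.32 for Parp12 to 2.75 for Parp14, and all 6 were still DEGs. The mean log2 CPM of the 12 microglial markers was higher by 3.08 in BCAS mice. Their single log2 fold changes ran from 1.54 to 4.33, and 7 of the 12 lay above that of Parp14. Set against that mean in each library, a comparison chosen after seeing the data, Parp14 differed by -0.083 between the groups, Parp3 by -0.77, Parp10 by -0.78, Parp9 by -0.90, Dtx3l by -1.30 and Parp12 by -1.58. The groups overlapped on this scale for Parp14, and every BCAS library was below every sham library for the other 5. The members that were not up-regulated differed by more, Parp1 by -3.53, Parp11 and Parp8 by -3.06 and Parp2 by -2.98. Any gene that rose less than the marker mean is lower on this scale. The share of all tested genes that separate in this way was not counted, so the separation is no result about the members.

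Among the other cell types, 6 of 7 astrocyte markers, 7 of 8 T cell markers and 4 of 7 endothelial markers were higher with an adjusted P under 0.05. The summed astrocyte level was 4208 to 4487 CPM in sham mice and 9089 to 9594 CPM in BCAS mice. For endothelial markers the sum was 265 to 290 CPM in sham mice and 351 to 392 CPM in BCAS mice. The summed T cell level was 0.944 to 2.07 CPM in sham mice and 9.67 to 10.2 CPM in BCAS mice. Of the neutrophil and monocyte markers 4 of 7 were tested and 3 were up-regulated DEGs, with a median log2 fold change of 3.84 over the 4. They summed to 0.778 to 1.86 CPM in sham mice and 6.00 to 12.6 CPM in BCAS mice, and Ly6g, which defines neutrophils, had 3 counts or fewer in every library. Of the B cell markers 4 of 6 were tested and 2 were up-regulated DEGs, at a summed 1.602 to 2.004 CPM in sham mice and 5.10 to 6.28 CPM in BCAS mice. Oligodendrocyte markers had a median log2 fold change of 0.13, and their summed level was 5213 to 6390 CPM in sham mice and 6580, 5959 and 9001 CPM in BCAS mice 1 to 3, highest in the mouse in which the 6 members were highest. Which cells carried the members was not tested.

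Of the 7 remaining PARP genes, Zc3hav1 and Parp4 were up-regulated DEGs and Parp6 was lower with an adjusted P under 0.05, with a median log2 fold change of 0.0099 over the 7. Zc3hav1, the zinc-finger antiviral protein, which lacks ADP-ribosyltransferase activity and is also interferon-responsive, went from 9.53 ± 0.231 to 30.01 ± 5.77 CPM (SD, n = 3 per group), a log2 fold change of 1.66 (adjusted P = 7.989e-05 by edgeR). Parp4, a component of vault particles, was 7.14, 6.25 and 4.37 CPM in sham mice and 14.9, 9.14 and 17.4 CPM in BCAS mice (log2 fold change 1.22, adjusted P = 0.007984 by edgeR). Parp6, which is known in neuronal dendrites, had a log2 fold change of -0.40 (adjusted P = 0.01721 by edgeR), and lost the call without any 1 of the sham mice, at an adjusted P of 0.0510 to 0.0627. Parp16, Tiparp, Tnks and Tnks2 had log2 fold changes from -0.12 to 0.20 and did not pass.

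Of the 4 other deltex genes, Dtx4 was higher with a log2 fold change of 0.59 (adjusted P = 0.008397 by edgeR) and was no DEG. Dtx2 missed the threshold at 0.49 (adjusted P = 0.0505 by edgeR), while without BCAS mouse 2 it passed at 0.0140. Dtx1 at -0.081 and Dtx3 at -0.20 did not pass. Dtx3l was therefore the only DEG of the 5 deltex genes tested here.

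All 16 classic interferon targets were higher with an adjusted P under 0.05, 15 as DEGs, at a median log2 fold change of 3.12, close to that of Parp14. Of 12 genes for interferon receptors, JAK kinases, STAT factors and interferon regulatory factors, 10 were higher, 6 as DEGs, at a median of 1.07. Of 9 tested genes that remove or read ADP-ribose, 3 were lower (median -0.079), and only 1 was lower without sham mouse 1 or sham mouse 3. Of 16 genes of strand-break repair, 1 was higher (median 0.043). Of 13 genes that make or use NAD, the substrate of the family, 4 were higher and 2 lower (median 0.30). The only DEG of this list was a lower gene, at a log2 fold change of -1.22. Without sham mouse 1, 3 NAD genes in all passed. The genes of these lists were gathered from general knowledge with earlier results of these data known, and the counts are descriptions.

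**Figure D5:**
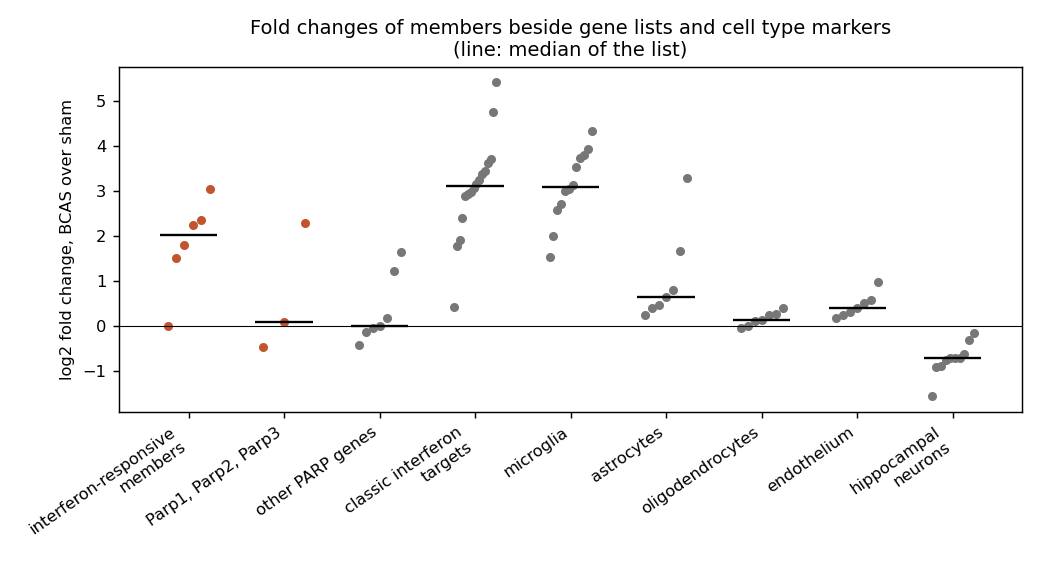
Log2 fold change (BCAS over sham, vertical axis) of every tested gene in 9 groups of genes along the horizontal axis, with members in orange, other lists and cell type markers in grey and a line at each median. The medians of the classic interferon targets (3.12) and microglial markers (3.10) lie above that of the interferon-responsive members (2.03), and that of the neuronal markers is -0.70.

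Likeness of profile was measured as the root mean square difference between centred log2 CPM values over the 6 libraries, where a small value means close. Nearest to Parp9 were Cmtm7 (0.0778), Msn (0.0896) and Isg20 (0.0924), and Parp10 ranked 7th at 0.102, whereas its own partner Dtx3l ranked 167th at 0.254. Dtx3l was nearest to Anxa4 (0.0529), Rgs10 (0.0545) and Xaf1 (0.0545). For Parp14 these were Fes (0.0833), Neurl3 and Lpxn, for Parp10 Sp100 (0.0483), Itgb3 and Siglech, for Parp12 Pald1 (0.0405), Wipf1 and P2ry12, and for Parp3 Ucp2 (0.0622), Dok1 and Nlrp1b. Siglech and P2ry12 are microglial genes, and Isg20, Xaf1 and Sp100 are known interferon targets. The other nearest genes were not sorted in this way, so these labels do not describe the neighbours as a set. The nearest to Parp1 were Inpp5f (0.0354), Elovl6 and Actr3. Those of the members that did not pass the test were Kdsr, Fbxo42 and Tmem14c for Parp2, Capn1, Phf20l1 and Cog3 for Parp8, and Arrdc2, Jam3 and Klhdc4 for Parp11. The libraries share the split into sham and BCAS mice, so likeness mostly reflects a similar fold change, and it is given with no test.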

How the data were processed

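Counts were available for 6 libraries, 3 sham and 3 BCAS, grouped by their titles. The authors trimmed the reads with Trim Galore, used HISAT2 for alignment to mm10 and featureCounts to count reads on genes, and they deposited the raw counts, not normalized. The submitters' notes name featureCounts 1.6.3 and the file headers 2.0.3 with GENCODE M20. Per the file headers, mates were counted separately and strand was ignored, so that a fragment can count at both mates and overlapping genes cannot be told apart by strand.

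Here genes were filtered with filterByExpr, normalized by TMM and tested with edgeR's quasi-likelihood test (edgeR 4.0.16, limma 3.58.1, DESeq2 1.42.0, R 4.3.3), with Benjamini-Hochberg adjustment over all 18617 tested genes. CPM use TMM-scaled totals, and log2 CPM a prior count of 2. A count of 0 would allow 3 counts, 0.0874 to 0.0994 CPM, for counting error alone. The authors' test used DESeq2, which is an alternative here. The other alternatives were limma-voom, RLE, library totals, other count filters, halved counts, glmTreat, a replicate block and leaving out each mouse. The scripts were tested on simulated data. Members and lists were chosen with earlier results of these data known. All members are named, with the other PARP and deltex genes and the 3 nearest profiles of each member, and listed genes otherwise only as counts. A further gene of this rule is not reported here. Single-cell, protein and other measurements of the study were not analysed here.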

Additional observations from a re-analysis of the deposited data

How the results depend on the processing

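Across the 14 alternatives for each member, the 6 up-regulated members were DEGs and 7 members had an adjusted P under 0.05 throughout, also with the replicate block (6 and 7) and with each mouse left out (6 to 6 and 7 to 7). Same-numbered sham and BCAS libraries did not deviate together from their group means, with correlations of 0.036, -0.314 and -0.158. These 3 values cannot exclude that same-numbered mice were handled together. The block gave 1437 higher and 158 lower DEGs against 1576 and 186. Parp14 ranged from 2.75 to 3.26 and Parp1 from -0.49 to -0.37. Of 517 alternative values, 492 kept their direction and side of the threshold or, for a count, stayed within 1.5 times. Direction turned only in genes near 0 and in the ratio of Parp11 to Parp2. With each mouse left out, Parp11 ran from -0.051 to 0.067, Parp8 from -0.086 to 0.071, Tiparp from -0.086 to 0.076, Tnks2 from -0.072 to 0.014 and the ratio of Parp11 to Parp2 from -0.16 to 0.032. Tiparp was -0.0039 with DESeq2 and with RLE, and Tnks2 was 0.050 with library totals, which moved the median of all genes to 0.094. The count of other deltex genes was 2 with DESeq2, library totals and halved counts, and 1 to 2 with each mouse left out, as Dtx2 passed. With each mouse left out, 1 to 3 ADP-ribose genes and 3 to 7 NAD genes passed. The cause was not tested. With 3 mice per group, small differences such as that of Parp8 cannot be resolved, and the level of proteins or ADP-ribose was not measured in these libraries.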
